A study of Arabidopsis thaliana with 6 samples.

Results

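The plastid chromosome of Arabidopsis thaliana was followed through 69 of its genes on 6 Affymetrix ATH1 arrays, arrays of short oligonucleotides that read each transcript through a set of probes. The members were the genes annotated to the plastid chromosome that had a probe set naming that gene alone, with 1 probe set per gene. They are 69 of 13356 genes with a single-gene probe set in the series, and 69 of the 78 protein-coding gene names of the plastid chromosome in the TAIR10.1 annotation. Of the other names, 7 had probe sets annotated to both copies of a duplicated gene, and the rest were not analysed here. Mitochondrial genes of like name were left out. The members were taken by annotation, and this choice was made with earlier results of these data known.

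Each of the 3 groups had 2 arrays of total RNA from material labelled as 3 weeks old, and the design text calls the replicates biological. The first group was the Col-0 wild type, kept in air free of hydrocarbons. The second was Col-0 exposed to ethylene gas, a plant hormone, at 10 ppm, for 4 h according to the characteristics and the design text but 24 h according to the array titles. The third was amiR-ETP1/2, a line in the Col-0 background with an artificial microRNA against the F-box protein genes ETP1 and ETP2, which the study's title links to the breakdown of the ethylene signalling protein EIN2. The promoter of the artificial microRNA, the number of independent lines, the gas given to that line and the organ sampled could not be taken from the labels. The growth protocol speaks of seedlings on plates wrapped in foil and of a later transfer to soil, so the light received before sampling is not settled by the labels.

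The plastid chromosome is a small circular genome inherited from the cyanobacterial ancestor of the chloroplast. It encodes core subunits of the photosynthetic complexes of the thylakoid membrane, the large subunit of Rubisco, and a part of the plastid's own RNA polymerase and ribosome. The nucleus encodes the remaining subunits, which the plastid imports. Most plastid genes lie in polycistronic transcription units that are copied together by a bacterial-type RNA polymerase or by a phage-type polymerase of nuclear origin, and are then cut, spliced, edited and stabilised by nuclear-encoded proteins. In leaves these transcripts are abundant, and their amounts depend on both transcription and RNA stability. In RNA of whole tissue, fewer plastids or fewer green cells and less RNA per plastid cannot be told apart.

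The values are 1 level per probe set and array and were read as log2 from their range, so a log2 difference of 1 is taken as a doubling of signal, and a level of 1 gene is never set against that of another. The median level over all probe sets was 4.39 to 4.46 on the 6 arrays. Replicate arrays differed more for plastid genes than for others in air and in amiR-ETP1/2. The median absolute gap between the 2 air arrays was 0.40 for the members against 0.17 for all probe sets, and air array 1 was the higher one for 48 of 69 members. In amiR-ETP1/2 the gap was 0.28 against 0.16, with array 1 higher for 63 members, and with ethylene it was 0.15 against 0.14. In 8 members the air arrays lay at least 1 log2 unit apart (atpA, psbC, psbZ, psaI, ycf4, rps3, rpl22 and ndhI). RNA quality controls also differed between arrays. For GAPDH the excess of the 3' over the 5' control was 0.77 and 1.76 on the air arrays, 1.02 and 1.76 on the ethylene arrays and 0.52 and 0.66 on the amiR-ETP1/2 arrays. For actin the excess of the 3' over the middle control was 0.32 and 0.83 on the air arrays, 2.17 and 2.02 on the ethylene arrays and 0.89 on each amiR-ETP1/2 array. The excess of the actin 3' over its 5' control ran the other way, at 4.04 and 4.68 on the air arrays, 3.40 and 3.51 on the ethylene arrays and 4.78 and 5.20 on the amiR-ETP1/2 arrays. The part of these controls in the results was not tested. Plastid RNA mostly lacks the long poly(A) tails of nuclear messengers, and the labelling protocol names no primer, so how fully the label covers plastid RNA was not tested either.

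Ethylene was compared with air to ask which transcripts differed in treated Col-0. Of the 69 plastid genes 38 rose, 3 fell and 28 were not called, where a call is an adjusted p under 0.05 in limma with Benjamini-Hochberg adjustment over 22746 probe sets. The rises were led by petL, a small subunit of the cytochrome b6f complex, and by ndhA, ndhE and ndhI of the NDH complex, and the falls were in atpB, petA and cemA. The members called higher made up 55.1%, beside 18.9% of all probe sets, and those called lower 4.35%, beside 17.1%. Over all probe sets 36.0% were called in either direction. The median log2 difference was 0.84 over the members and -0.00281 over all probe sets. The median plastid level was 6.46 and 6.01 on the air arrays, 7.23 and 7.46 on the ethylene arrays and 6.44 and 5.80 on the amiR-ETP1/2 arrays. Both ethylene arrays lay above both air arrays for 47 members, beside 33.5% of all probe sets, and below them for 9, beside 32.9%.

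**Figure D1:**
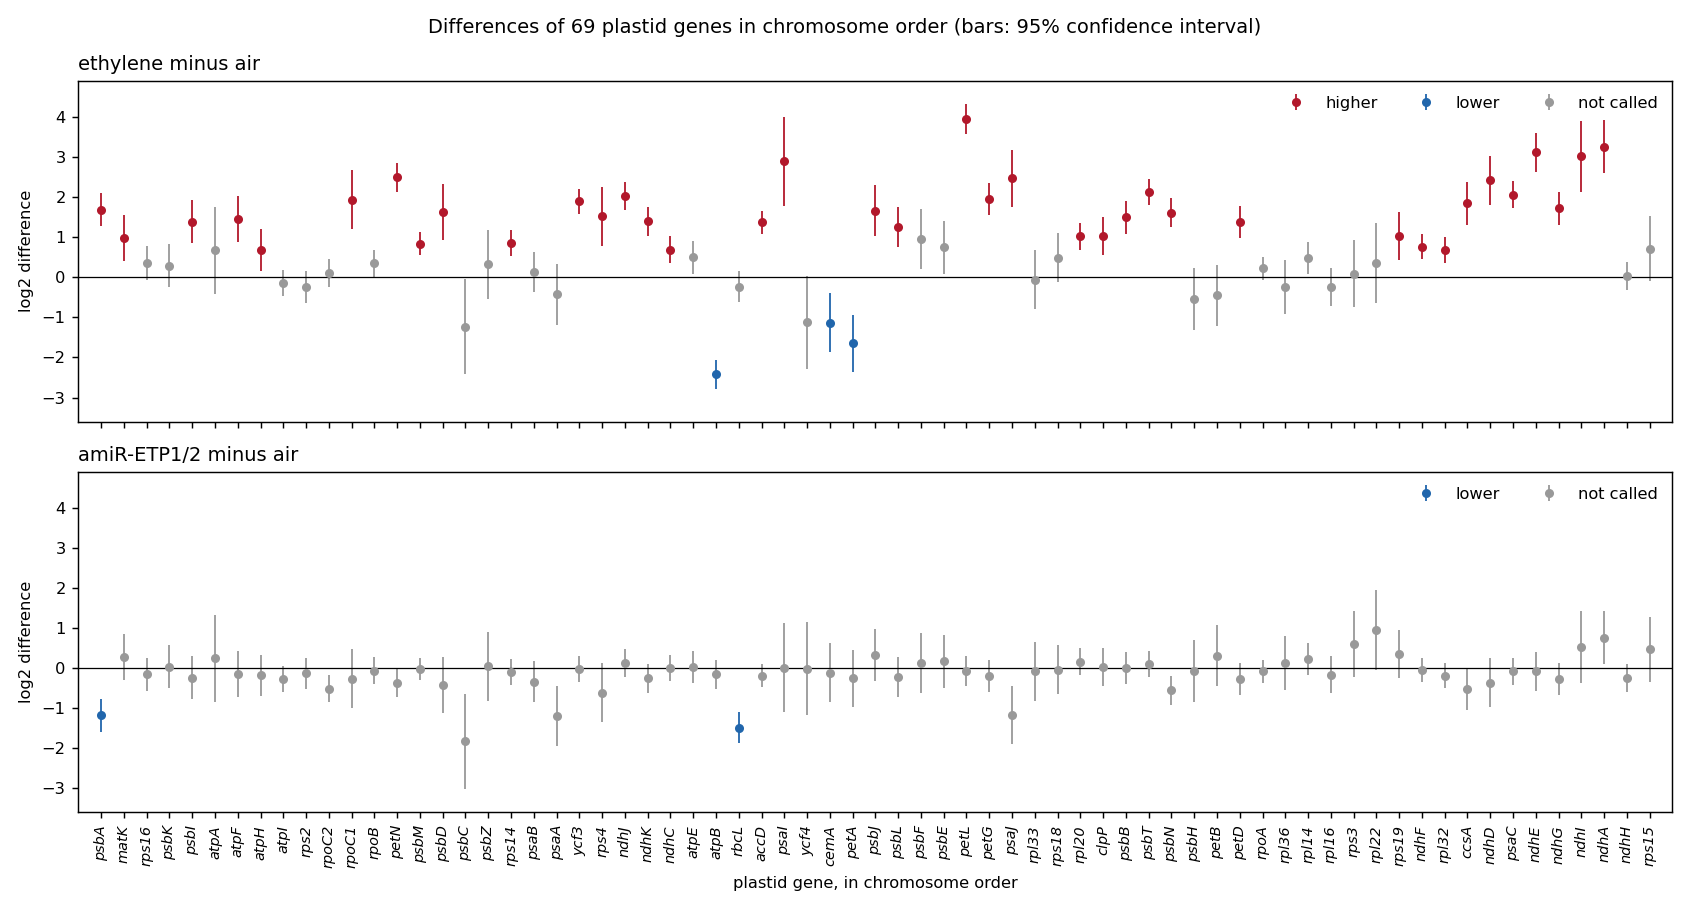
Log2 difference of each of the 69 plastid genes, in chromosome order on the horizontal axis, for ethylene minus air (top) and amiR-ETP1/2 minus air (bottom); points are estimates from 2 arrays per group, bars are 95% confidence intervals of the limma fit, and colour gives the call. With ethylene 38 genes are called higher and 3 lower, while in amiR-ETP1/2 only psbA and rbcL are called.

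The count of genes called higher stayed between 32 and 45 when any 1 array was left out, and the count called lower, 3, was 2 without air array 1 or without either ethylene array and 8 without air array 2. Setting every plastid value against the median plastid level of its array removes by construction any shift that the members share. This level moved more than the typical member did, so the median log2 difference of the members was then -0.27. With this centring 15 members were higher and 24 lower. The balance of rises and falls above is that of the levels as deposited, and the centring cannot test it.

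Photosystem II, which splits water and passes electrons to plastoquinone, had 15 measured plastid genes. Of these 9 rose and none fell, with a median log2 difference of 1.26. The gene psbA encodes the D1 reaction centre protein, which is replaced often in the light. Its level was 7.29 and 6.94 in air, 8.92 and 8.70 under ethylene and 6.08 and 5.80 in the amiR-ETP1/2 line, so that the 3 groups did not overlap and the ethylene arrays were the highest. It rose 3.23-fold with ethylene (log2 difference 1.69, SE 0.17, limma adjusted p = 0.000204). With each array centred on its median plastid level the psbA difference was 0.58 and was not called (limma adjusted p = 0.0506). That centring left the median member at -0.27. The gene psbD, of the partner protein D2, went from 4.86 and 3.88 to 5.89 and 6.10 (difference 1.62, limma adjusted p = 0.0039), and psbB, of the inner antenna protein CP47, from 4.16 and 4.19 to 5.69 and 5.65 (difference 1.50). The gene of the other inner antenna protein, CP43, was not called. Its name is psbC, and it lay at 8.998 and 7.50 in air, 7.06 and 6.96 under ethylene and 6.97 and 5.89 in the amiR-ETP1/2 line. The air arrays differed by 1.50 log2 units there, and the ethylene difference of -1.24 had a limma adjusted p of 0.104, which was 0.0123 without air array 2 (difference -1.99).

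Among the small subunits of photosystem II, psbT rose most, from 3.69 and 3.62 to 5.66 and 5.93 (difference 2.14, limma adjusted p = 1.97e-05), and psbJ (1.66), psbI (1.39), psbL (1.26) and psbM (0.84) rose as well. So did psbN (1.62), which encodes an assembly protein and is read from the strand opposite to its neighbours psbT and psbH. The 2 subunits of cytochrome b559, psbE and psbF, had differences of 0.75 and 0.95 that missed the threshold (limma adjusted p = 0.0786 and 0.0541), although both ethylene arrays lay above both air arrays. With only the 4 compared arrays in the fit both were called (limma adjusted p = 0.0437 and 0.0389). The others not called were psbZ (0.33), psbK (0.30) and psbH (-0.55). Without air array 1, psbZ (0.96, limma adjusted p = 0.00864) and psbK (0.66, limma adjusted p = 0.0254) were called higher.

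Photosystem I, which reduces ferredoxin, had 5 measured genes, and 3 rose. The small subunit gene psaI was at 6.41 and 5.09 in air and 8.58 and 8.71 with ethylene (difference 2.89, SE 0.47, limma adjusted p = 0.00213). The small subunit gene psaJ went from 10.28 and 9.80 to 12.40 and 12.62 (difference 2.47), and psaC, of the subunit that carries iron-sulfur clusters at the stromal face, from 3.95 and 3.97 to 5.88 and 6.17 (difference 2.07). The large core genes psaA and psaB were not called. The level of psaA was 6.46 and 5.96 in air and 5.67 and 5.90 with ethylene (difference -0.43, limma adjusted p = 0.382), and that of psaB was 10.50 and 9.88 against 10.28 and 10.36 (difference 0.13, limma adjusted p = 0.724).

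The cytochrome b6f complex, which joins the photosystems by passing electrons from plastoquinone to plastocyanin, held both the largest rise and the second largest fall of all members. The rise was in petL, a small subunit, with levels of 5.47 and 5.80 in air, 9.57 and 9.62 under ethylene and 5.45 and 5.69 in the amiR-ETP1/2 line. Both ethylene arrays stood far above the other 4, and the rise was 15.5-fold (log2 difference 3.96, SE 0.16, limma adjusted p = 2.71e-06). The other small subunit genes, petN and petG, rose 5.66-fold and 3.89-fold, petN from 4.52 and 4.59 to 7.23 and 6.88. The gene petD, of subunit IV, rose 2.61-fold. Cytochrome f itself is encoded by petA, which was at 10.67 and 9.80 in air, 8.53 and 8.65 under ethylene and 10.28 and 9.69 in the amiR-ETP1/2 line. It fell 3.13-fold with ethylene (log2 difference -1.64, SE 0.30, limma adjusted p = 0.00398). The cytochrome b6 gene petB had a difference of -0.44 (limma adjusted p = 0.368), and without air array 2 it was -0.92 (limma adjusted p = 0.0409).

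The ATP synthase, which makes ATP from the proton gradient over the thylakoid membrane, had 6 measured genes. The largest fall of all members was in atpB, of the catalytic beta subunit. Its level was 12.34 and 11.94 in air, 9.72 and 9.72 under ethylene and 11.96 and 12.02 in the amiR-ETP1/2 line, and it fell 5.34-fold with ethylene (log2 difference -2.42, SE 0.16, limma adjusted p = 1.99e-05). The alpha subunit gene atpA was not called, at 8.02 and 6.93 in air and 7.73 and 8.57 with ethylene. Of the genes of the membrane part, atpF rose 2.74-fold and atpH, of the ring subunit, 1.61-fold, while atpI had a difference of -0.14 (limma adjusted p = 0.53). The call of atpH (limma adjusted p = 0.0461) was lost without air array 2 (limma adjusted p = 0.227), without ethylene array 1 (limma adjusted p = 0.0571) and without ethylene array 2 (limma adjusted p = 0.284), and with a replicate block (limma adjusted p = 0.0721).

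The NDH complex, a relative of respiratory complex I that returns electrons from ferredoxin to plastoquinone in cyclic electron flow, had 10 measured genes. Of these 9 rose and none fell, with a median log2 difference of 1.87. In the membrane arm, ndhA was at 5.54 and 4.79 in air, 8.36 and 8.48 under ethylene and 6.23 and 5.62 in the amiR-ETP1/2 line, and rose 9.56-fold with ethylene (log2 difference 3.26, SE 0.28, limma adjusted p = 8.29e-05). The gene ndhE, also of the membrane arm, was at 3.57 and 3.66 in air, 6.41 and 7.05 under ethylene and 3.58 and 3.49 in the amiR-ETP1/2 line, and rose 8.69-fold (log2 difference 3.12, SE 0.21, limma adjusted p = 2.36e-05). Its air levels lay below the lower quartile of all probe sets, 3.78 and 3.84. Signal over background was not measured, so the size of this fold is that of the deposited values. The same holds for psbT, rps14, ndhF and accD, which also rose from air levels below that quartile on both arrays. The remaining membrane arm genes ndhD, ndhG, ndhC and ndhF rose 5.38-fold, 3.29-fold, 1.62-fold and 1.70-fold, and the ndhC call was lost without ethylene array 2 (limma adjusted p = 0.0602). In the peripheral arm, ndhI rose 8.09-fold, from 9.30 and 7.93 to 11.61 and 11.65, and ndhJ and ndhK rose 4.07-fold and 2.63-fold. The exception was ndhH of the same arm, at 4.60 and 4.76 in air and 4.63 and 4.80 with ethylene (difference 0.04, limma adjusted p = 0.896).

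**Figure D2:**
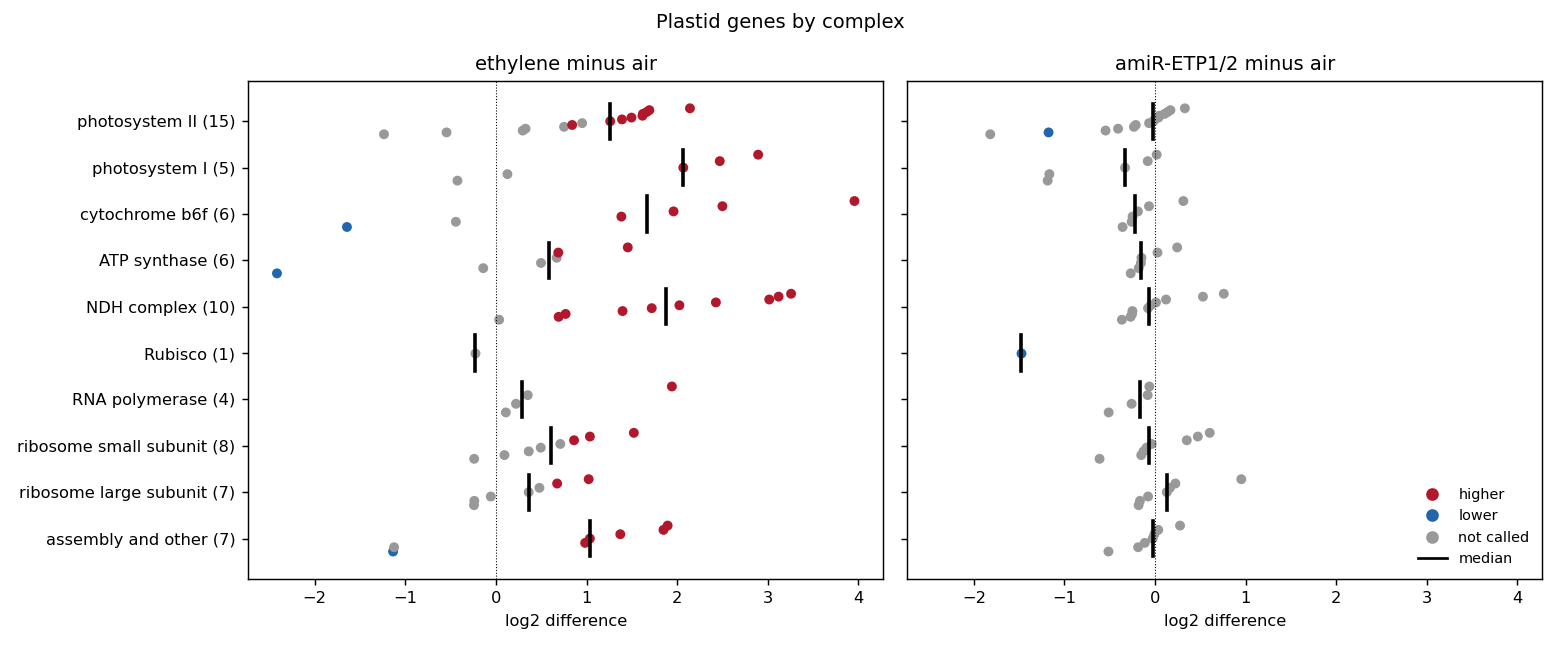
Log2 difference of each plastid gene (points, coloured by call) grouped by complex, with the number of measured genes in brackets and the median of each group as a black line, for ethylene minus air (left) and amiR-ETP1/2 minus air (right). With ethylene the NDH complex shows 9 of 10 genes higher, while the cytochrome b6f complex spans from -1.64 for petA to 3.96 for petL.

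Rubisco, the enzyme that fixes carbon dioxide, has its large subunit gene rbcL in the plastid. Its level was 6.15 and 6.01 in air, 5.88 and 5.82 under ethylene and 4.81 and 4.38 in the amiR-ETP1/2 line. The ethylene difference of -0.23 was not called (SE 0.17, limma adjusted p = 0.364). With each array centred on its median plastid level it was -1.34 (limma adjusted p = 0.000601), where the median member was at -0.27.

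The plastid also encodes parts of its own transcription and translation apparatus. Of the 4 genes of the bacterial-type RNA polymerase only rpoC1 rose, from 5.86 and 5.23 to 7.41 and 7.57 (3.84-fold, limma adjusted p = 0.00199). The genes rpoA, rpoB and rpoC2 had differences of 0.22, 0.35 and 0.11. Among 8 genes of the small ribosomal subunit, rps4 (2.87-fold), rps19 (2.05-fold) and rps14 (1.82-fold) rose, and rps2, rps3, rps15, rps16 and rps18 were not called, with differences from -0.24 for rps2 to 0.71 for rps15. Among 7 genes of the large subunit, rpl20 and rpl32 rose 2.03-fold and 1.60-fold, and the other 5 were not called, between -0.24 for rpl16 and 0.48 for rpl14. The calls of rps4 and rpl32 were lost without ethylene array 2, and that of rps19 without either ethylene array. With an array left out, further genes were called, namely rps3 (0.72) and rpl22 (1.10), higher without air array 1, rpl36 (-0.73) and rpl16 (-0.54), lower without air array 2, rpoB (0.52), higher without air array 2, and rps16 (0.61) and rpl14 (0.67), higher without ethylene array 1. The gene rps15 was called higher with only the 4 compared arrays in the fit or without either amiR-ETP1/2 array (limma adjusted p = 0.00488).

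Of the 7 remaining genes, 5 rose with ethylene and 1 fell. The gene ycf3, of an assembly protein of photosystem I, went from 3.79 and 3.82 to 5.57 and 5.83 (3.72-fold, limma adjusted p = 3.41e-05), and ccsA, which acts in attaching heme to c-type cytochromes, from 8.90 and 8.44 to 10.46 and 10.58 (3.60-fold). The fatty acid synthesis gene accD, of a subunit of acetyl-CoA carboxylase, rose 2.59-fold, the protease gene clpP 2.05-fold and the intron maturase gene matK 1.98-fold. The matK call was lost without air array 2 and without either ethylene array, and that of clpP without ethylene array 1. The envelope membrane protein gene cemA was at 9.42 and 8.57 in air, 7.83 and 7.89 under ethylene and 9.23 and 8.53 in the amiR-ETP1/2 line, and fell 2.20-fold with ethylene (log2 difference -1.14, SE 0.31, limma adjusted p = 0.0252). Its call was lost without air array 1 (limma adjusted p = 0.115), without ethylene array 1 (limma adjusted p = 0.136) and without ethylene array 2 (limma adjusted p = 0.125). A second assembly gene of photosystem I, ycf4, had a difference of -1.12 that was not called (limma adjusted p = 0.13), and without air array 2 it was -1.80 (limma adjusted p = 0.0275).

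The ethylene differences were then read along transcription units. The units were assigned from general knowledge of the Arabidopsis plastid chromosome, without an operon annotation, and were not measured here. Of these units 15 had at least 2 measured genes. In the unit that runs accD, psaI, ycf4, cemA and petA, the genes accD (1.37) and psaI (2.89) rose, cemA (-1.14) and petA (-1.64) fell and ycf4 (-1.12) was not called, a span of 4.54 log2 units. The change of sign lies between psaI and ycf4. In the unit psbB, psbT, psbH, petB and petD, the outer genes psbB (1.50), psbT (2.14) and petD (1.38) rose, while psbH (-0.55) and petB (-0.44) between them were not called.

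In the unit from ndhD to rps15, the 6 genes ndhD, psaC, ndhE, ndhG, ndhI and ndhA all rose, by 1.72 for ndhG to 3.26 for ndhA, and the last pair in chromosome order, ndhH (0.04) and rps15 (0.71), was not called. The adjoining genes atpB and atpE, of the beta and epsilon subunits of the ATP synthase, differed by sign, with -2.42 and 0.50 (limma adjusted p = 0.0593 for atpE, and 0.0332 without air array 1, where its difference was 0.67). In the unit psbD, psbC and psbZ the differences were 1.62, -1.24 and 0.33, and only psbD was called. In the unit rpoB, rpoC1 and rpoC2 only the middle gene rpoC1 was called. In the unit psaJ, rpl33 and rps18 only psaJ was called (2.47, beside -0.06 and 0.49).

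Some units moved as a whole or hardly at all. Every measured gene rose in the unit ndhC, ndhK and ndhJ (0.69, 1.40 and 2.02) and in the pair clpP and rpl20 (1.04 and 1.02). Both genes also rose in the pair petL and petG (3.96 and 1.96). This pair lies next to psaJ, rpl33 and rps18 and was read apart from them. Read as a single unit, these genes would run from 3.96 for petL to -0.06 for rpl33, with rpl33 and rps18 not called. In the ribosomal unit from rpoA to rps19, 1 of 7 measured genes was called, rps19, and the differences ran from -0.24 for rpl16 to 1.04. In the unit that holds 4 ATP synthase genes and rps2, atpF and atpH rose and atpA, atpI and rps2 were not called. In the unit psbE, psbF, psbL and psbJ the differences were 0.75, 0.95, 1.26 and 1.66, and psbL and psbJ were called. Of psaA (-0.43), psaB (0.13) and rps14 (0.86) only rps14 was called, and of psbK (0.30) and psbI (1.39) only psbI. Over all 68 pairs of neighbouring measured genes the Pearson correlation of the ethylene differences was 0.31, a description in which a gene enters up to 2 pairs and all share the same arrays. No test of the differences between genes of a unit was made.

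**Figure D3:**
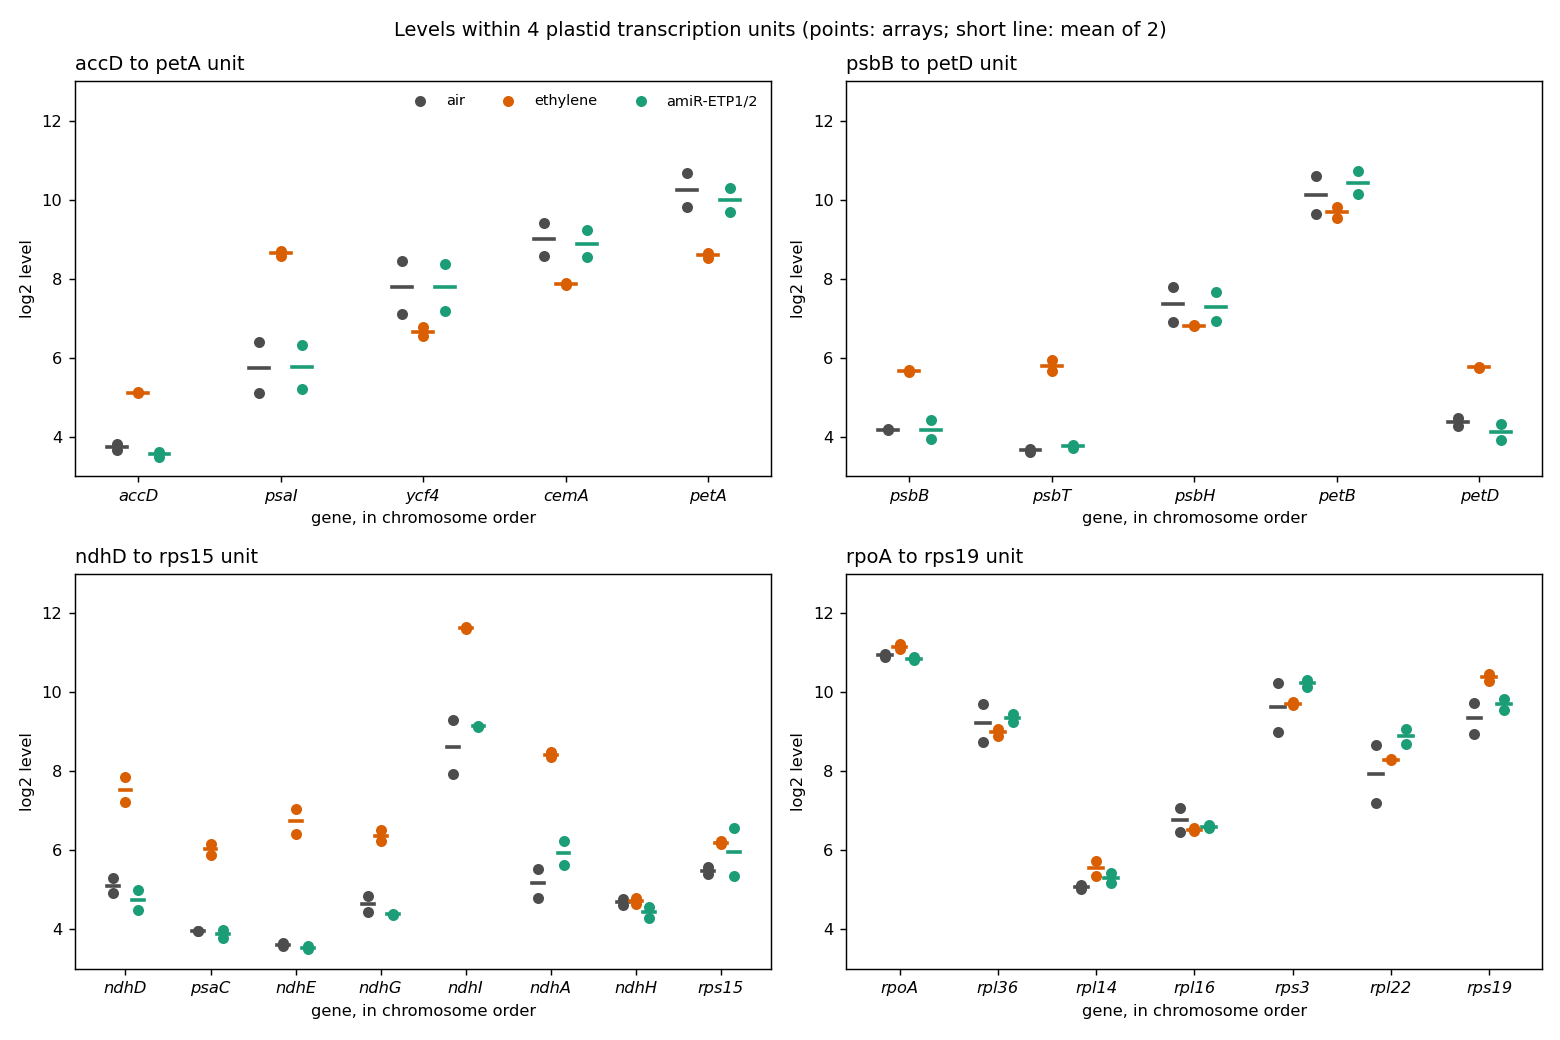
Log2 level of each gene on each array (points; short lines are means of 2 arrays) within 4 transcription units, with genes in chromosome order, to be compared between groups within a gene. In the upper left unit the ethylene arrays lie above the air arrays for accD and psaI and below them for ycf4, cemA and petA.

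Nuclear partners of these complexes were read on the same arrays. Lists of 87 nuclear genes were drawn up for subunits of the same complexes and for factors that transcribe or process plastid RNA. Of these, 12 genes had a named single-gene probe set and are called measured here. The annotation left 8730 of the probe sets unnamed, and whether other listed genes lie among them was not tested. The 12 included 2 of 13 listed genes of photosystem I, 2 of 11 of photosystem II and 3 of 16 of the NDH complex. For Rubisco no nuclear subunit was among the 12, and RCA, listed with the subunits, is an activase and not a subunit. With ethylene 8 of the 12 fell and none rose, with a median log2 difference of -1.87. Of all probe sets 17.1% were called lower and 18.9% higher. The falls were PSAE-1 and PSAN of photosystem I (4.70-fold and 2.09-fold), PSBW and PSBY of photosystem II (3.15-fold and 5.66-fold), ATPC1, the gamma subunit of the ATP synthase (4.22-fold), RCA, the activase of Rubisco (17.4-fold), and NDHL and NDHN of the NDH complex. The NDHL level was 9.57 and 9.85 in air and 5.37 and 5.23 with ethylene, a 21.3-fold fall (log2 difference -4.41, SE 0.14), and NDHN fell 19.3-fold (log2 difference -4.27, SE 0.16). These stand beside rises of 1.62-fold to 9.56-fold in 9 plastid genes of the NDH complex on the same arrays.

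The partner genes not called were PETM (0.04), ATPC2 (0.19), NDHS (-0.23) and RPOTMP (-0.06), a phage-type RNA polymerase that was the 1 measured member of 8 listed sigma factors and polymerases. The lists of 14 proteins associated with the plastid RNA polymerase and 14 factors of RNA binding and processing had no member with a named single-gene probe set. They were therefore not read, which does not show that the arrays lack them. In amiR-ETP1/2 none of the 12 partner genes was called against air, with a median of -0.15. The comparison of nuclear with plastid genes is a description of counts, and the difference between the lists was not tested.

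**Figure D4:**
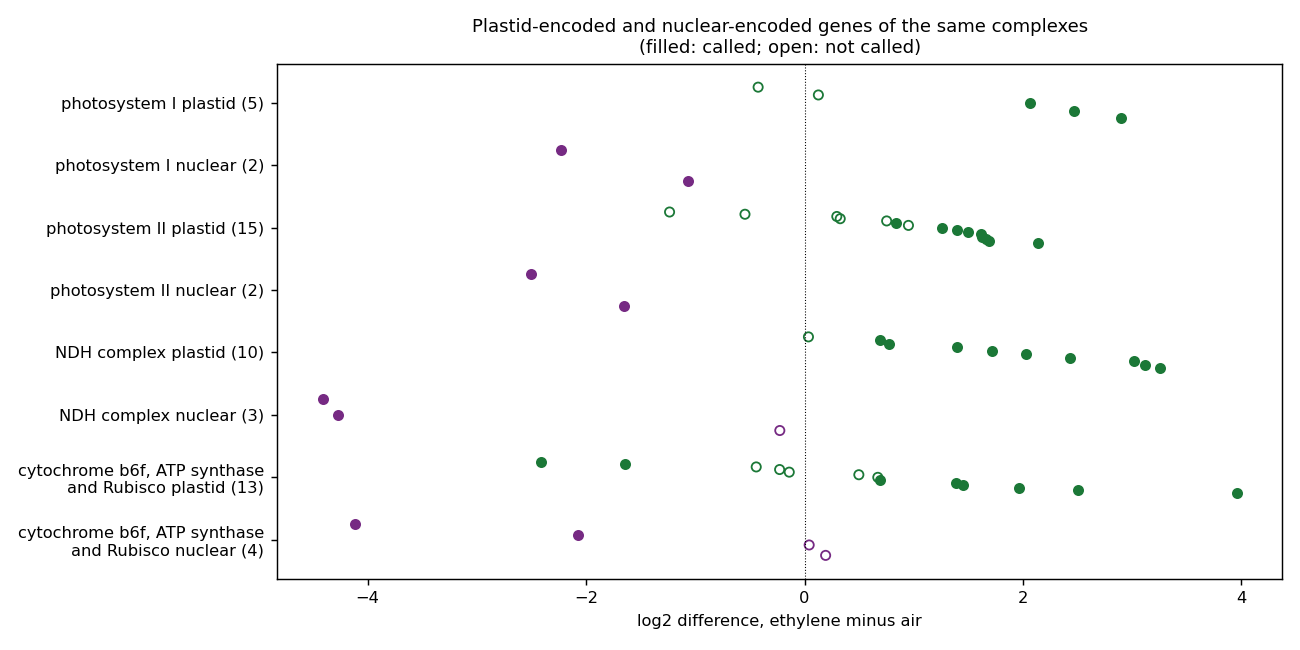
Log2 difference, ethylene minus air, of plastid-encoded (green) and nuclear-encoded (purple) genes of the same complexes; each point is 1 gene, filled where called and open where not, and the number of measured genes is in brackets. The called nuclear genes lie between -4.41 and -1.06, and the called plastid genes of the NDH complex between 0.69 and 3.26. RCA, plotted with the nuclear genes of Rubisco, is its activase and not a subunit.

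The line amiR-ETP1/2 was compared with air to ask which transcripts differ when ETP1 and ETP2 are targeted. Of the 69 plastid genes 2 fell, rbcL and psbA, none rose and 67 were not called. Among all probe sets 0.62% passed, with 0.347% higher and 0.273% lower, and the 2 members are 2.90% of 69. The median log2 difference was -0.08 over the members and -0.03 over all probe sets. At an unadjusted p under 0.05 there were 8 members, 1 higher and 7 lower, beside 15.1% of all probe sets.

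In rbcL both amiR-ETP1/2 arrays, at 4.81 and 4.38, lay below the other 4 arrays, which spanned 5.82 to 6.15. The gene fell 2.80-fold against air (log2 difference -1.48, SE 0.17, limma adjusted p = 0.0182). In psbA the amiR-ETP1/2 arrays, at 6.08 and 5.80, were the lowest as well, and the gene fell 2.26-fold against air (log2 difference -1.18, SE 0.17, limma adjusted p = 0.0434). The difference stayed between -1.70 and -1.27 for rbcL and between -1.35 and -1.004 for psbA under all 13 alternative settings, but the call did not. No member was called (0 of 69) when either air array or either ethylene array was dropped, and 4 were called without amiR-ETP1/2 array 1. Without amiR-ETP1/2 array 2 the psbA call was lost (limma adjusted p = 0.0756) and rps15 was called higher (1.08, limma adjusted p = 0.039). The adjusted p reached 0.132 for rbcL and 0.18 for psbA in limma when the ethylene arrays were left out of the fit. Dropping either ethylene array alone gave this same fit for the comparison with air, so these settings are not separate checks. With a replicate block 1 member was called, rbcL (limma adjusted p = 0.0434), and psbA was not (limma adjusted p = 0.0504).

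The largest other differences in amiR-ETP1/2 were not called. They were psbC (-1.82, SE 0.50, limma adjusted p = 0.166), psaA (-1.19, limma adjusted p = 0.159) and psaJ (-1.17, limma adjusted p = 0.151), and on the higher side rpl22 (0.95, limma adjusted p = 0.351), ndhA (0.76, limma adjusted p = 0.27) and rps3 (0.60, limma adjusted p = 0.477). In psbC the amiR-ETP1/2 arrays lay below both air arrays, although the 2 arrays were over 1 log2 unit apart in each of these groups. Without amiR-ETP1/2 array 1 the genes psaA (-1.68) and psaJ (-1.63) were called as well, each with a limma adjusted p of 0.032. Of the listed genes called with ethylene, none but psbA was called here, with differences of -0.07 for petL (95% interval -0.44 to 0.31), -0.08 for ndhE (-0.57 to 0.41), -0.15 for atpB (-0.52 to 0.22), -0.25 for petA (-0.96 to 0.46) and -0.11 for cemA (-0.85 to 0.62). For ndhA the interval of its difference of 0.76 ran from 0.0972 to 1.42, and both amiR-ETP1/2 arrays lay above both air arrays. Both amiR-ETP1/2 arrays lay below both air arrays for 17 members, beside 25.6% of all probe sets, and above them for 5, beside 18.9%.

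**Figure D5:**
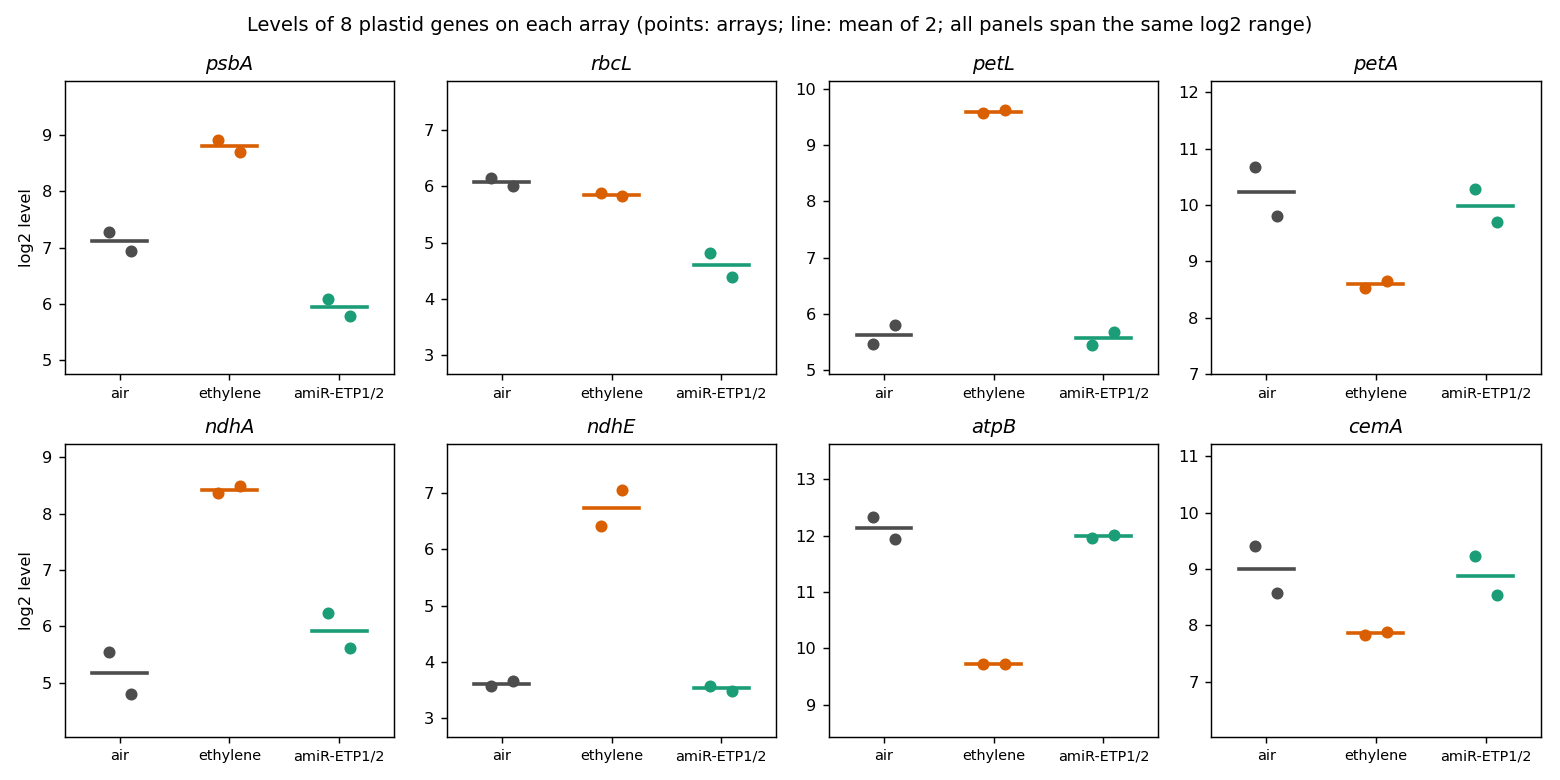
Log2 level of 8 plastid genes on each of the 6 arrays (points; lines are means of 2 arrays), with all panels spanning the same number of log2 units. In petL, ndhA and ndhE the ethylene arrays lie above the other 4, in petA, atpB and cemA below them, and in rbcL and psbA the amiR-ETP1/2 arrays are the lowest.

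The direct comparison of amiR-ETP1/2 with ethylene uses the same ethylene arrays as the comparison with air, so both hold the spread of those arrays. In this comparison 38 plastid genes were lower in amiR-ETP1/2, 3 were higher and 28 were not called, where 38.4% of all probe sets passed the test, 20.2% on the lower and 18.2% on the higher side. Both amiR-ETP1/2 arrays lay below both ethylene arrays for 53 members, beside 39.1% of all probe sets, and above them for 10, beside 31.9%. The largest differences were in petL (-4.02, limma adjusted p = 2.41e-06), psaJ (-3.64), ndhE (-3.20), psaI (-2.88) and psbA (-2.87, limma adjusted p = 1.53e-05). The higher genes were atpB (2.27), petA (1.40) and cemA (1.02). The calls of petA and cemA were lost without either ethylene array, where the adjusted p in limma was 0.0562 to 0.0699 for petA and 0.151 to 0.166 for cemA, and that of cemA also without amiR-ETP1/2 array 1 (limma adjusted p = 0.158). Of the genes that rose with ethylene against air, matK and rps19 were not called here. The genes lower in amiR-ETP1/2 than with ethylene that had not risen against air were rbcL (-1.26, limma adjusted p = 0.000702) and rpoC2 (-0.62, limma adjusted p = 0.0114), the latter not called without amiR-ETP1/2 array 1 (limma adjusted p = 0.0598) or without ethylene array 2 (limma adjusted p = 0.0866).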

How the data were processed

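Total RNA of 6 samples, 2 in each of 3 groups taken from the labels, was measured on Affymetrix ATH1 arrays. The deposited values, 1 per probe set, were read as log2 from their range. No label or header states their scale or how they were normalized. The submitters' processing notes name limma with no version. Probe sets were named from the platform annotation, and chromosome and gene order came from TAIR10.1. The 7 control probe sets were left out. limma 3.58.1 in R 4.3.3 (lmFit and eBayes) was fitted to the other 22746 with all 6 arrays, 3 contrasts and no covariate, and checked on simulated data. The p-values were adjusted by the Benjamini-Hochberg method over all probe sets and called under 0.05. They measure the spread between these arrays.

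The alternatives were quantile normalization, centring on the array median or on the plastid median, leaving out the lowest 40% of probe sets, only the compared arrays, trend and robust moderation, a replicate block and leaving out each array. For each contrast, leaving out an array of the third group gave the same fit as only the compared arrays. The members, gene lists and transcription units were chosen with earlier results of these data known. The naming rule took 8 listed genes, all calls in amiR-ETP1/2 against air, the extremes of each complex and contrast, and the 10 largest and smallest differences. Other members are named to account for all genes of a complex or unit.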

Additional observations from a re-analysis of the deposited data

How the results depend on the processing

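The count of plastid genes called with ethylene against air, 41, lay between 34 and 47 without each array in turn and between 39 and 44 under the other 7 alternatives. The count for amiR-ETP1/2 against ethylene, also 41, lay between 36 and 50 and between 40 and 50. The count for amiR-ETP1/2 against air, 2, was 0 when only the 4 compared arrays were fitted and ran from 0 to 4 without each array in turn. Among the genes that rose with ethylene, 15 of 38 kept their call under every alternative that tested them other than leaving out arrays. With centring on the plastid genes set aside too, 37 of 38 did so. The drop to 15 is thus that of the centring, which cannot test a shared rise. With the replicate block, 43 genes were called with ethylene against air, 43 in amiR-ETP1/2 against ethylene and 1 in amiR-ETP1/2 against air. Under it atpH lost its ethylene call, and psbC (lower), psbE and psbF (higher) were newly called, as were matK (lower) and petB (higher) in amiR-ETP1/2 against ethylene. Deviations of same-numbered arrays were correlated over the probe sets that remain without the lowest 40%. The values were -0.13, -0.15 and 0.05, so the numbers were not taken to pair the arrays. Over the 69 plastid genes alone the value for air and amiR-ETP1/2 was 0.46.

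Centring the plastid genes on their own median in each array removes by construction any shift they share. The median difference then was -0.27 with ethylene against air and 0.37 in amiR-ETP1/2 against ethylene. Before centring it was 0.84 and -0.86, so the centring took off more than the median difference of the members. A change of sign therefore does not set a gene apart from the typical member. With ethylene against air psbM, the median member at 0.84, went to -0.27. Under this centring 13 genes lost their ethylene call against air with the sign kept, among them psbA (0.58), and 11 that had not been called were called lower, among them rbcL (-1.34). In amiR-ETP1/2 against ethylene 10 lost their call with the sign kept and 8 were newly called, all higher. In amiR-ETP1/2 against air psbA lost its call (-1.06), and psaA (-1.07) and psaJ (-1.05) were called lower. A change of sign is listed where the gene was called in at least 1 of the settings. With ethylene against air 20 genes changed sign, to log2 differences of matK -0.12, rps16 -0.75, psbK -0.81, atpH -0.42, rpoC2 -0.999, psbM -0.27, rps14 -0.25, psaB -0.98, ndhC -0.42, atpE -0.61, rps18 -0.61, rpl20 -0.0847, clpP -0.0718, rpoA -0.89, rpl14 -0.63, rps3 -1.01, rps19 -0.0716, ndhF -0.34, rpl32 -0.43 and ndhH -1.07. In amiR-ETP1/2 against ethylene 24 genes changed sign, to log2 differences of matK 0.52, rps16 0.71, psbK 0.97, atpH 0.36, atpI 1.10, rpoC2 0.61, psbM 0.37, rps14 0.27, psaB 0.77, psaA 0.47, ndhC 0.55, atpE 0.76, psbE 0.65, rpl33 1.21, rps18 0.69, rpl20 0.37, clpP 0.23, rpoA 0.92, rpl14 0.97, rps19 0.54, ndhF 0.41, rpl32 0.37, ndhH 0.94 and rps15 0.99.

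With 2 arrays per group the precision is limited by their number. Leaving out an array leaves 1 in its group, which is then assumed to vary like the others. Signal over background was not measured, so differences of genes near the lower quartile are the least certain in size.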

Other observations

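Of the 7 plastid genes with probe sets annotated to both copies of the inverted repeat, which were not among the 69, 4 rose with ethylene against air. Over all probe sets 18.9% were called higher. The ribosomal protein genes rps7 (log2 difference 1.85, limma adjusted p = 0.0215), rpl23 (1.60, limma adjusted p = 0.00841) and rpl2 (1.06, limma adjusted p = 0.0204) rose, and so did ndhB of the NDH complex (1.48, limma adjusted p = 5.38e-05). The levels of ndhB were 3.82 and 3.84 in air, 5.35 and 5.26 under ethylene and 3.58 and 3.57 in the amiR-ETP1/2 line. The genes ycf2 (0.31), ycf1 (0.42) and rps12 (-0.15 and 0.11 in its 2 probe sets) were not called. None of these probe sets was called in amiR-ETP1/2 against air. The 2 air arrays lay apart for rps7, at 7.67 and 6.12.

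Across the 69 plastid genes, Spearman's correlation of annotated gene length with the ethylene difference was -0.25, a description across genes that share the same arrays.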
